A study of Mus musculus with 4 samples.

Results

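The Fc receptor genes FCGR1A, FCGR2A, FCGR2B, FCGR3A, FCER1A, FCER1G and FCGRT were followed across the human immune cells of a breast tumor model. They were taken by name, as 7 of the 36601 human genes in the feature lists, and the choice by name used no measured value. The cells were live human CD45+ leukocytes, sorted from orthotopic tumors of MDA-MB-231, a human breast carcinoma line. The tumors grew in MISTRG mice, which carry human genes for M-CSF, GM-CSF and IL-3, and whose human blood cells came from injected fetal liver CD34+ cells. One group of 7 mice was untreated, and the other group of 7 mice received maraviroc, an antiretroviral drug, in the drinking water. Cells of each mouse were marked with a hashtag antibody, pooled, and run through 2 single-cell RNA-seq captures (called reaction 1 and reaction 2, with a 3' chemistry), with 4 untreated and 3 maraviroc mice in reaction 1 and 3 and 4 in reaction 2. All mice, the untreated ones included, shared the engraftment and the tumor line. The ages of the mice at sampling and the donors of their CD34+ cells are not given in the sources used here. GEO labels the organism as mouse, while the counted genes are human.

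Fc receptors bind the constant part of antibodies and couple antibody recognition to cells. FCGR1A (CD64, the high-affinity IgG receptor), FCGR2A (CD32A) and FCGR3A (CD16A) activate phagocytosis, cytokine release or killing when IgG-coated targets crosslink them. FCGR2B (CD32B) is the inhibitory IgG receptor, and its tail recruits the phosphatase SHIP, encoded by INPP5D. FCER1G encodes the FcRγ chain, which carries the signalling motif for FCGR1A, FCGR3A and the IgE receptor. FCER1A encodes the IgE-binding chain of the high-affinity IgE receptor, best known on mast cells and basophils. FCGRT encodes the heavy chain of FcRn, which pairs with beta-2-microglobulin and rescues IgG from breakdown in endosomes.

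Of 42702 deposited barcodes, 37806 had more than 600 and at most 6000 detected genes and a mitochondrial share under the study's limit, and 19817 of these were assigned to 1 hashtag. Cells were gated into 11 classes by UMIs (unique molecular identifiers, counted molecules) of marker genes that hold no Fc receptor gene, which placed 16503 cells. There were 6259 macrophage, 3722 monocyte, 2508 T, 2361 CD3+ NK-marker, 532 NK, 333 cDC2 (CD1C+ dendritic cell), 198 mast, 173 plasmacytoid dendritic (pDC), 172 B, 158 mature dendritic and 87 cDC1 cells. The kept cells of a mouse summed to 5996882 to 14782548 UMIs. The median cell had 3020.0 UMIs in reaction 1 and 9691.5 in reaction 2, so reaction 2 measured each cell more deeply. Levels of gate markers are given as a description, since the cells were picked by these same genes and the contrast is no test of the gates. CD3D reached 931 UMIs per 1000000 UMIs of the class (CPM) in T cells of reaction 1 against 25.2 in macrophages. In the same reaction TPSAB1 reached 6492 in mast cells against 1.65 in macrophages, and C1QA reached 1986 in macrophages against 381 in monocytes. There were 136 barcode sequences that occurred in both reactions, 31 of them among the kept cells.

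RNA of lysed cells can reach every droplet, and C1QA, a complement gene of macrophages, served as a yardstick for it. C1QA is also 1 of the macrophage gate's markers, so the gates themselves may lower it elsewhere, which was not tested. In T cells C1QA stood at 6.23% of its macrophage level in reaction 1 and at 1.46% in reaction 2. In NK cells it stood at 11.7% and 1.93%, and in mast cells at 11.7% and 0.298%. These shares are given below beside receptor levels, and the part of free RNA in those levels was not tested. C1QA does not cover RNA of lymphocytes. GNLY, an NK gate marker, was at 449 CPM in macrophages and 475 in monocytes of reaction 1, and at 21.5 and 17.0 in reaction 2. In NK cells it was at 8906 and 11970. The part of lymphocyte RNA in the myeloid levels below, those of FYN and CD247 included, was not tested. Ranges and medians below are CPM from the cells of a class summed per mouse, over mice with at least 10 cells of it. Levels given for a whole reaction, UMI counts and percents of the macrophage level sum all cells of a class instead, with mice under that limit included. Each level is compared with the same gene in other classes only. Fewer cells with a transcript and less RNA per cell cannot be told apart in such sums. Of the near-identical copies of these genes, FCGR1B and FCGR3B were counted as genes of their own and FCGR2C was not in the feature lists, so the assignment of reads between FCGR1A and FCGR1B and between FCGR2A, FCGR2B and FCGR2C is uncertain.

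**Figure D1:**
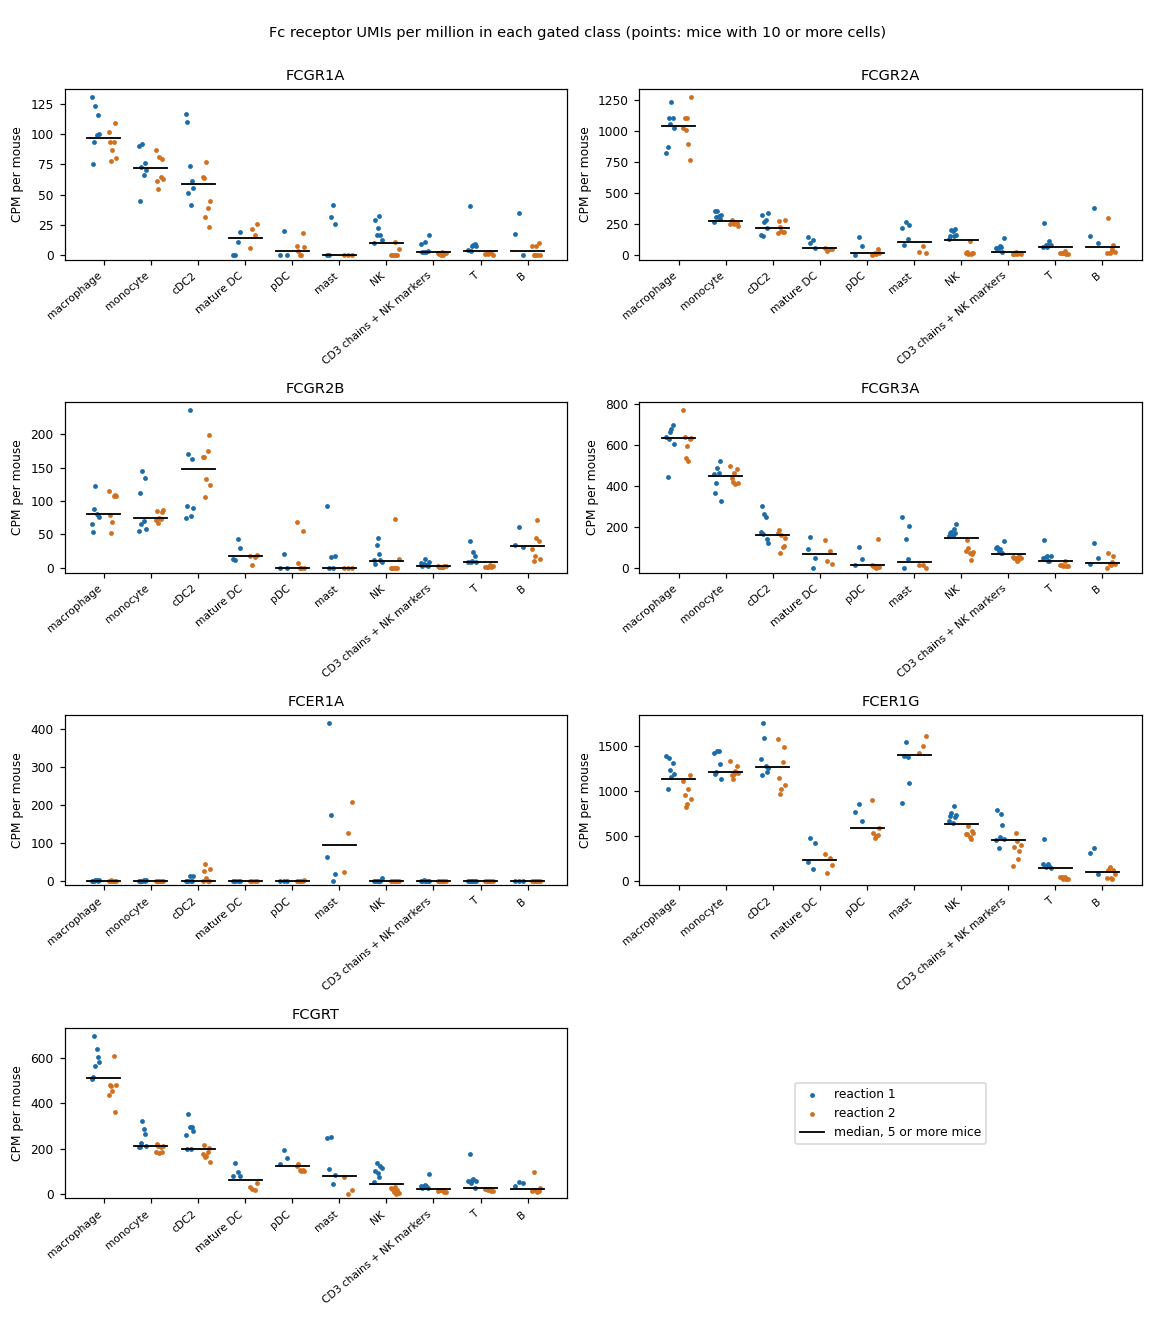
Level of each Fc receptor gene (CPM, linear axis from 0) in the gated cell classes, with 1 point per mouse of at least 10 cells, colored by reaction, and a bar at the median. Macrophages were highest for FCGR1A, FCGR2A, FCGR3A and FCGRT, cDC2 for FCGR2B, and mast cells for FCER1A and FCER1G.

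The 7 genes fell into 3 patterns. By median over mice, macrophages had the highest level of FCGR1A, FCGR2A, FCGR3A and FCGRT. cDC2 had the highest level of FCGR2B. Mast cells had the highest level of FCER1A and FCER1G, although the order at the top of FCER1G was not resolved. Of 122 pairs of neighbouring classes or states in these orders, 24 differed beyond the spread over mice in an exact sign-flip permutation test within mice (both tails, Benjamini-Hochberg adjusted). One of these ran against the order of the medians: FCGR2A had a higher median in T than in B cells, yet within mice T cells were higher in 0 of 9 (mean log2 difference -1.28, adjusted p = 0.0217, exact sign-flip test). The medians drew on unlike numbers of mice in reactions 1 and 2, 7 and 6 for T cells and 3 and 7 for B cells. Mean FCGR2A in T cells was 106 CPM in reaction 1 and 14.2 CPM in reaction 2.

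Of the 6 members tested between macrophages and monocytes, FCGR2A showed the widest step. Its level was 768 to 1276 CPM in macrophages of the 14 mice, with a median of 1045, and 231 to 355 in monocytes, with a median of 274. No mouse overlapped between the classes. The log2 fold change was 1.76 (SE 0.07, n = 14 mice, adjusted p = 6.27e-15 by edgeR's quasi-likelihood test with the mouse as a block). It was 1.66 in reaction 1 and 1.90 in reaction 2. cDC2 followed with a median of 219 CPM, lower than monocytes in 12 of 14 mice (adjusted p = 0.018, exact sign-flip test).

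FCGR1A and FCGR3A were higher in macrophages than in monocytes by smaller steps. FCGR1A reached 75.4 to 131 CPM in macrophages, median 96.7, and 44.7 to 91.7 in monocytes, median 71.8. The ranges overlapped, yet macrophages were higher in 14 of 14 mice (log2 fold change 0.37, SE 0.05, adjusted p = 1.80e-06 by edgeR). FCGR3A reached 442 to 769 CPM in macrophages, median 632, and 328 to 520 in monocytes, median 449. Macrophages were again higher in 14 of 14 mice (0.40, SE 0.05, adjusted p = 8.90e-08). Both steps were also past the threshold in each reaction by itself.

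The shared signalling chain and the inhibitory receptor did not follow the activating receptors. FCER1G was lower in macrophages, with a median of 1126 CPM (818 to 1389), than in monocytes, with a median of 1211 (1130 to 1440). The log2 fold change was -0.29 (SE 0.05, adjusted p = 4.51e-05 by edgeR), at -0.42 in reaction 2 and -0.13 (adjusted p = 0.105) in reaction 1. FCGR2B was at 51.4 to 123 CPM in macrophages and 55.3 to 145 in monocytes, with medians of 80.3 and 74.4. The log2 difference was -0.03 with an SE of 0.11 (adjusted p = 0.828). In all, 5 of the 6 members tested passed, against 65.0% of all genes in this comparison, and a count beside so high a background says little about the members. FCER1A was too low to be tested, with 32 UMIs in all macrophages and 3 in all monocytes.

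FCGRT more than doubled from monocytes to macrophages. Its level was 182 to 321 CPM in monocytes, median 211, and 363 to 698 in macrophages, median 513, with no overlap. The log2 fold change was 1.16 (SE 0.06, adjusted p = 1.36e-13 by edgeR), at 1.22 in reaction 1 and 1.14 in reaction 2. FCGRT in pDC had a median of 121 CPM (101 to 192), below cDC2 in 9 of 9 mice (adjusted p = 0.022, exact sign-flip test). In reaction 2 pDC had 23.1% of the macrophage FCGRT level against 1.14% for C1QA.

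Of 26 partner and signalling genes of these receptors, 24 were tested between macrophages and monocytes, and 4 rose and 15 fell, beside the 65.0% of all genes called there. FGR, a kinase of the Src family, was at a log2 fold change of -2.20. FYN, another such kinase, was at -2.22. PIK3R1, a regulatory subunit of PI3 kinase, was at 1.18, and INPP5D, the phosphatase that FCGR2B recruits, was at 0.45. GAB2, an adaptor, was at -0.36. The median over the 24 genes was -0.18 against 0.01 over all genes tested. Among other Fc receptors, FCAR, the IgA receptor, fell (SE of the log2 fold change 0.09, adjusted p = 4.89e-14 by edgeR), from 75.2 CPM in monocytes to 20.4 in macrophages of reaction 1 and from 108 to 26.2 in reaction 2. FCRL1 and TRIM21, an Fc receptor inside the cytosol, were lower by 0.59 and 0.25.

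**Figure D2:**
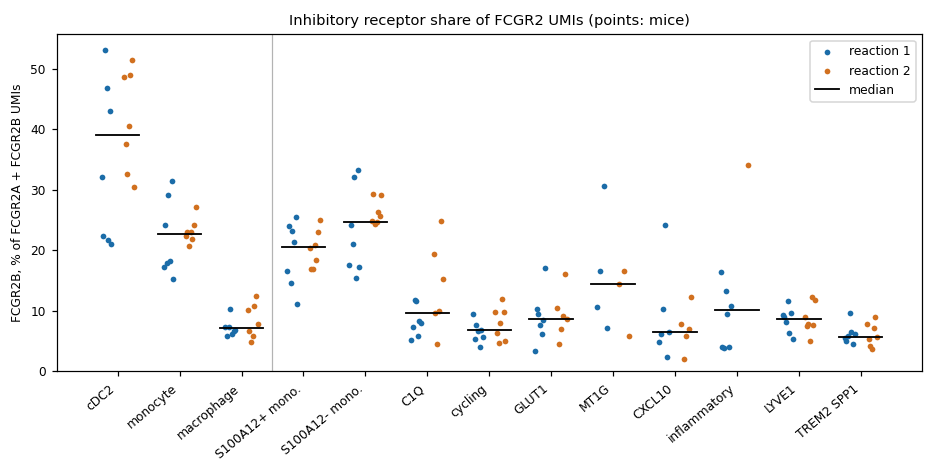
Share of FCGR2B in the summed FCGR2A and FCGR2B UMIs (percent, axis from 0) per mouse, by class and state, colored by reaction, with a bar at the median. The mean share was 37.9% in cDC2, 22.6% in monocytes and 7.80% in macrophages.

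The balance between the inhibitory and the activating CD32 gene was then measured as the share of FCGR2B in the FCGR2A and FCGR2B UMIs of a class, a measure chosen after the levels were seen. The share was 37.9% ± 11.3 in cDC2, 22.6% ± 4.59 in monocytes and 7.80% ± 2.24 in macrophages (SD, n = 14 mice). The shares ran from 21.1% to 53.1% in cDC2, from 15.3% to 31.5% in monocytes and from 4.85% to 12.46% in macrophages. Macrophages and monocytes did not overlap, and cDC2 and monocytes did. Monocytes were above macrophages in 14 of 14 mice by 14.8 percentage points (adjusted p = 3.05e-04, exact sign-flip permutation test, 5 pairs tested). cDC2 were above monocytes in 13 of 14 mice by 15.3 points (adjusted p = 4.07e-04). The pooled shares were close in the 2 reactions, at 39.8% and 42.3% in cDC2, 21.9% and 23.2% in monocytes, and 7.25% and 7.52% in macrophages.

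FCGR2B itself was highest in cDC2. It was at 75.2 to 236 CPM in cDC2, median 148, above macrophages in 13 of 14 mice (adjusted p = 0.0033, exact sign-flip test). Against monocytes, a comparison added after the levels were seen, 3 of 6 members tested passed, with 41.2% of all genes passing. FCGR2B was higher by a log2 fold change of 0.84 (SE 0.12, adjusted p = 8.09e-06 by edgeR), at 1.03 in reaction 2 and 0.58 (adjusted p = 0.0504) in reaction 1. FCGR3A was lower by 1.43 on the log2 scale, with 70.4 to 301 CPM in cDC2, median 161, and no overlap with monocytes. FCGR2A was lower by 0.29, a call that was lost in each reaction by itself and with a gate on 3 markers (adjusted p = 0.166). C1QA stood in cDC2 at 28.7% and 23.8% of its macrophage level, above its share in monocytes of 19.2% and 10.53%, while FCGR3A and FCGR2A had lower shares in cDC2 than in monocytes. The part of macrophage RNA, or of doublets with macrophages, in the cDC2 levels was not tested.

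FCER1A, the IgE-binding chain, also appeared in cDC2. Its level was 3.76 CPM in reaction 1, from 6 UMIs (exact Poisson 95% interval 1.38 to 8.17), and 12.8 CPM in reaction 2, from 42 UMIs (9.24 to 17.3). Monocytes had 3 UMIs in reaction 1, at 0.256 CPM, and 0 in reaction 2, which allows up to 0.165 CPM (a floor of 3 counts). Over both reactions the ratio of the levels was 97.9, with an exact interval for counting error of 31.6 to 492, and the gene did not pass the filter on low counts. The median mouse had no FCER1A UMI in its cDC2, and the highest had 44.3 CPM.

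Of 23 signalling genes tested between cDC2 and monocytes, 1 was higher and 12 were lower, where 41.2% of all genes were called. LYN and FGR were at -0.71 and -0.81, LCP2, an adaptor, at -0.80, GAB2 at -0.79 and VAV3, an exchange factor, at -0.76. The median over the list was -0.39 against 0.01 over all genes.

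**Figure D3:**
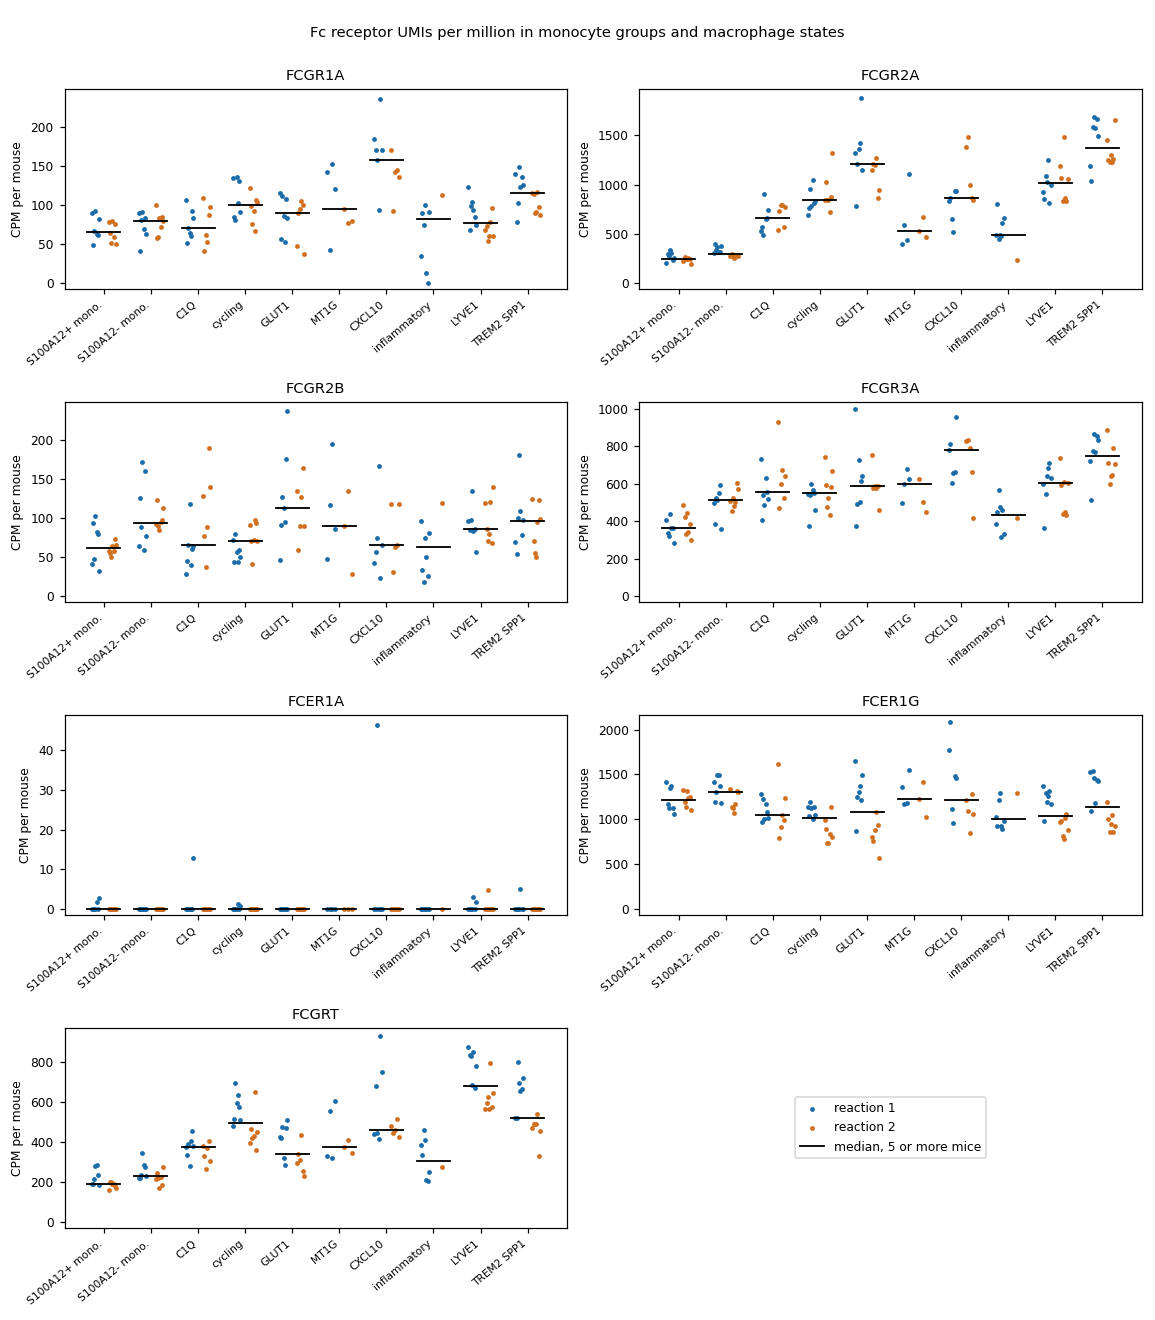
Level of the Fc receptor genes (CPM, linear axis from 0) in 2 monocyte groups and 8 macrophage states, with 1 point per mouse, colored by reaction, and a bar at the median of 5 or more mice. By median FCGR2A was highest in TREM2 SPP1 macrophages, not resolved from GLUT1 macrophages (higher in 10 of 13 mice, adjusted p = 0.056, exact sign-flip test), and FCGRT in LYVE1 macrophages.

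Within macrophages, states were gated by marker genes and each was set against C1Q macrophages, those with a C1Q gene above its mean share and fewer than 2 markers of any other state. C1Q macrophages of reaction 1 were shallow, at 1597 UMIs in the median cell against 2934 over all macrophages, while in reaction 2 they had 12714 against 12508. FCGR2A was at 492.6 to 903 CPM in C1Q macrophages (median 664, n = 13 mice) and at 1041 to 1682 in TREM2 SPP1 macrophages (median 1376, n = 14 mice), with no overlap. It was higher by 1.13 on the log2 scale (SE 0.09, adjusted p = 4.50e-10 by edgeR), at 1.26 in reaction 1 and 0.97 in reaction 2. TREM2, SPP1 and GPNMB mark lipid-handling macrophages.

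In TREM2 SPP1 macrophages 4 of 6 members passed, against 15.4% of all genes. FCGRT was higher by 0.73, FCGR1A by 0.66 and FCGR3A by 0.37 on the log2 scale. The FCGRT call held in each reaction, whereas FCGR1A (0.52, adjusted p = 0.277) and FCGR3A (0.17, adjusted p = 0.600) were not past the threshold in reaction 2. FCGR2B was at 0.82 in reaction 1 and -0.35 in reaction 2 in this comparison. In C1Q macrophages FCGR2B was at 60.1 CPM in reaction 1 and 112 in reaction 2. The difference between the reactions was not tested.

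LYVE1 macrophages, named for markers of resident perivascular cells, had the highest FCGRT. Their level was 568.2 to 880 CPM (median 680), against 268 to 455 (median 377) in C1Q macrophages, with no overlap. FCGRT was higher by 0.98 on the log2 scale (SE 0.09, adjusted p = 1.48e-08 by edgeR), at 1.08 and 0.87 in the reactions. LYVE1 macrophages were also above TREM2 SPP1 macrophages in 13 of 14 mice (adjusted p = 0.0045, exact sign-flip test). FCGR2A was higher than in C1Q macrophages by 0.60, and the 2 members that passed stood against 15.1% of all genes.

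CXCL10 macrophages, which carry interferon-induced chemokine genes, had the highest median FCGR1A, not resolved from TREM2 SPP1 macrophages (higher in 9 of 11 mice by 0.33 on the log2 scale, adjusted p = 0.0794, exact sign-flip test). Their level was 92.9 to 236 CPM (median 158, n = 11 mice), against 40.7 to 110 (median 71.0) in C1Q macrophages. The ranges overlapped slightly, and the log2 fold change was 0.98 (SE 0.15, adjusted p = 1.78e-04 by edgeR). FCGRT at 0.55 and FCGR2A at 0.49 also passed, so that 3 of 6 members did, against 9.58% of all genes. In reaction 2 by itself none of the 3 passed (FCGR1A 0.85, adjusted p = 0.117), in fewer mice.

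GLUT1 macrophages, marked by genes of low oxygen, had FCGR2A at 784 to 1882 CPM (median 1213), higher than C1Q macrophages by 0.97 (SE 0.12, adjusted p = 2.57e-06 by edgeR). It was 1 of 6 members past the threshold, against 16.0% of all genes. Their FCGR2B was at 1.17 in reaction 1 (adjusted p = 0.0050) and -0.27 in reaction 2. The share of FCGR2B in GLUT1 macrophages was above that of TREM2 SPP1 macrophages in 9 of 13 mice by 2.82 points (adjusted p = 0.0144, exact sign-flip test). Its mean was 9.139% in GLUT1 and 6.172% in TREM2 SPP1 macrophages. C1Q (10.92%), inflammatory (12.01%) and MT1G macrophages (14.6%) had higher mean shares than GLUT1 macrophages. LYVE1, CXCL10 and cycling macrophages had lower ones. The highest inflammatory mouse was at 34.04%. In reaction 1 the pooled shares of C1Q (8.381%) and inflammatory macrophages (7.921%) were below that of GLUT1 macrophages (9.401%). In reaction 2 they were above it, at 14.61% and 12.98% against 8.28%. MT1G macrophages were above it in both, at 11.41% and 12.89%. GLUT1 macrophages were not tested against these other states. Cycling macrophages had FCGRT at 0.49, FCGR1A at 0.38 and FCGR2A at 0.34 above C1Q macrophages, 3 of 6 members against 20.4% of all genes. In reaction 2 by itself none of the 3 passed (FCGRT 0.37, adjusted p = 0.113), while FCER1G was lower at -0.45 (adjusted p = 0.0383). The FCGR1A call was also lost with DESeq2 (adjusted p = 0.0586).

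MT1G and inflammatory macrophages had no member past the threshold. In MT1G macrophages, marked by metallothionein genes, edgeR called 0 of 6 members and 0.250% of all genes. In inflammatory macrophages, marked by IL1A, CCL20 and CXCL8, it called 0 of 6 members and 4.85% of all genes. In both states 0 members had an unadjusted p under 0.05, and DESeq2 called 0. MT1G macrophages were compared in 7 mice, and their member differences ran from -0.17 for FCGR2A to 0.45 for FCGR1A with SEs of 0.17 to 0.27. The near copy FCGR1B moved with FCGR1A where it was called, at 0.94 in TREM2 SPP1 and 0.66 in cycling macrophages.

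The shares of all genes called against C1Q macrophages were 15.4% for TREM2 SPP1, 15.1% for LYVE1, 20.4% for cycling, 16.0% for GLUT1, 9.58% for CXCL10 and 4.85% for inflammatory macrophages. Of 22 signalling genes tested in TREM2 SPP1 macrophages 3 were higher, VAV3 at 0.67, PIK3R1 at 0.41 and GAB2 at 0.26, and FYN was lower at -1.64. In LYVE1 macrophages VAV3 was higher at 0.57, and FYN, GRB2 and FGR were lower at -1.05, -0.34 and -0.60. In cycling macrophages 9 of 22 were lower and 0 were higher, with FGR at -0.78, FYN at -0.85, TYROBP at -0.30, PTPN6 at -0.41, INPP5D at -0.36 and GAB2 at -0.24. In GLUT1 macrophages GRB2, PIK3R1, SYK and VAV3 were higher at 0.46, 0.51, 0.49 and 0.48, and LCP2 was lower at -0.52. In CXCL10 macrophages B2M, the partner of FcRn, was higher at 0.38 and LYN at 0.52, and in inflammatory macrophages INPP5D was lower at -0.80.

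Monocytes were split by S100A12, a calgranulin gene of classical monocytes. A cell was S100A12+ with 1 UMI or more of that gene, and in reaction 1 such cells were deeper, at 4525 UMIs in the median cell against 2366. FCGR2B was at 31.9 to 103 CPM in S100A12+ monocytes (median 61.3) and 58.7 to 173 in S100A12- monocytes (median 93.6). The ranges overlapped. Within mice the difference was -0.65 on the log2 scale (SE 0.09, adjusted p = 3.60e-05 by edgeR), with -0.62 and -0.67 in the reactions. FCGR3A was lower in S100A12+ monocytes by 0.40 on the log2 scale (adjusted p = 1.76e-04), with medians of 364 and 512 CPM. FCGR2A was lower by 0.23, in 14 of 14 mice, a call that was lost without the mouse block (adjusted p = 0.072).

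With FCGRT, at -0.19 and an adjusted p of 0.042 that was lost under 4 other settings of both reactions, 4 of 6 members were lower, against 11.0% of all genes. FCER1G (-0.02, SE 0.04) and FCGR1A (-0.10, SE 0.08) were not past the threshold. FCAR went the other way, at 0.49 (SE 0.09, adjusted p = 6.47e-04). The share of FCGR2B was 24.7% ± 5.40 in S100A12- and 19.9% ± 4.26 in S100A12+ monocytes (SD, n = 14 mice), higher in the first in 13 of 14 mice (adjusted p = 0.0032, exact sign-flip test). Of 24 signalling genes, 5 were higher and 3 lower in S100A12+ monocytes. FGR, LCP2 and GAB2 were at 0.49, 0.26 and 0.28, and CD247 and B2M were at -1.16 and -0.14. The part of lymphocyte RNA in the CD247 difference was not tested.

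NK cells kill IgG-coated targets through FCGR3A. In NK cells FCGR3A was at 37.9 to 216 CPM, median 145, and in T cells at 6.36 to 135, median 34.9. The ranges overlapped, and the log2 fold change within mice was 2.08 (SE 0.23, adjusted p = 3.01e-07 by edgeR), at 1.71 in reaction 1 and 2.67 in reaction 2. The NK level was 28.3% and 13.3% of the macrophage level in the 2 reactions, where C1QA had 11.7% and 1.93%.

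FCER1G was at 465 to 830 CPM in NK cells, median 626, against 17.2 to 460 in T cells, median 140, with no overlap. FCER1G was higher by 2.93 on the log2 scale (SE 0.29, adjusted p = 5.07e-08), at 1.96 and 4.18 in the reactions. T cells had 165 CPM in reaction 1 and 29.9 in reaction 2. FCGR2A also passed at 1.03, so 3 of 4 members did, against 34.4% of all genes, while FCGRT was at 0.51 (adjusted p = 0.106). For FCGR2A the NK level was 15.8% and 2.90% of that of macrophages, near the C1QA shares of 11.7% and 1.93%, and in T cells it was 7.502% and 1.36% against 6.23% and 1.46%.

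The same order held for shares of cells after each cell was thinned to 1500 UMIs. In the first and second reaction FCGR3A was found in 28.1% of NK cells (exact 95% interval 23.0% to 33.6%) and 13.3% of them (7.62% to 21.0%), against 10.0% and 1.59% of T cells, 53.8% and 54.6% of macrophages, and 40.2% and 41.3% of monocytes. FCER1G was found in 66.1% and 57.5% of NK cells and in 25.0% and 3.49% of T cells. C1QA was found in 29.5% and 4.43% of NK cells and in 21.2% and 4.83% of T cells. Macrophages held more C1QA than FCGR3A, at 1986 and 619 CPM in reaction 1, so these shares cannot be set against those of FCGR3A. In NK cells 124 of 416 and 3 of 116 were too shallow to be thinned. Without thinning FCGR3A was found in 39.4% and 42.2% of NK cells.

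The gates kept cells with 2 or more NK markers out of the T class. CD3+ cells with NK markers, a class added after the data were seen, had medians of FCER1G and FCGR3A between those of T and NK cells. Their FCER1G was at 163 to 780 CPM (median 451) and their FCGR3A at 33.2 to 130 (median 64.9). Against T cells 3 of 4 members passed, with 39.7% of all genes passing. FCER1G was higher by a log2 fold change of 2.30 (SE 0.26, adjusted p = 3.74e-07 by edgeR), at 1.51 and 3.34 in the reactions. FCGR3A was higher by 1.24 (SE 0.19), and FCGRT lower by 0.48, a call that was lost without the mouse block (adjusted p = 0.558). FCGR2A stood at 6.50% and 1.07% of its macrophage level, with C1QA at 5.76% and 1.24%. Doublets of a T and an NK cell of the same mouse were not removed, and their part in this class was not tested.

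Signalling genes were set against the same T cell samples for both classes, where 34.4% of all genes were called in NK and 39.7% in CD3+ NK-marker cells. In NK cells 10 of 20 tested were higher and 2 lower, with PLCG2 at 3.38, LAT2 at 1.79, VAV3 at 1.36, TYROBP at 2.83 and SYK at 2.75, and LAT, the T cell adaptor, at -1.82. In CD3+ NK-marker cells 12 of 24 were higher and 5 lower, with PLCG2 at 2.67, LAT2 at 1.57, VAV3 at 0.90, PTPN6 at 0.73 and CD247, the zeta chain that can pair with FCGR3A, at 0.83, and LAT at -1.15. Of the other Fc receptors, FCMR, the IgM receptor, was lower in CD3+ NK-marker cells at -1.25.

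B cells use FCGR2B as their IgG brake. FCGR2B was at 10.6 to 71.2 CPM in B cells (median 32.7, n = 10 mice) and at 0.664 to 40.6 in T cells (median 8.11). The B cell level was 41.7 CPM from 12 UMIs (21.5 to 72.8) in one reaction and 32.7 CPM from 26 UMIs (21.3 to 47.8) in the other, which was 51.7% and 38.0% of the macrophage level with C1QA at 9.27% and 1.73%. It did not pass the filter on low counts. In the edgeR fit of all genes with a count FCGR2B was higher than in T cells by 3.13 on the log2 scale. The p and SE of that fit do not measure the spread over mice and are left out. Monocytes were above B cells in 10 of 10 mice (adjusted p = 0.014, exact sign-flip test).

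Of 3 members tested between B and T cells 2 passed, against 37.6% of all genes. FCGR2A was higher by 1.89 (SE 0.40, adjusted p = 8.12e-04), with 20.9% and 6.05% of the macrophage level. FCER1G was higher by 0.93 (adjusted p = 0.024), a call that was lost with a gate on 3 markers (adjusted p = 0.115) and without the mouse block. Of the wider family 5 genes were tested. FCRL1 was at 9.25, FCRLA at 8.99, FCER2 (CD23, the low-affinity IgE receptor) at 7.90, FCRL5 at 6.46 and FCMR at 1.95. A gene could pass the filter on low counts through B cells by themselves, so these values are given as a description. FCRL1 reached 403 CPM in B cells of reaction 1 and 413 in reaction 2. Among signalling genes 12 of 22 were higher, with PLCG2 at 4.94, BTK at 4.73, LYN at 4.88 and SYK at 5.03, and 5 were lower, with LAT at -5.28 and FYN at -2.75.

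Mast cells carried the IgE receptor genes. FCER1A was at 0 to 414 CPM in mast cells of 8 mice, with a median of 93.2, and 7 of the 8 mice had at least 1 UMI. It rested on 33 UMIs in the first reaction (108 CPM, exact Poisson 95% interval 74.6 to 152) and 36 UMIs in the second (101 CPM, 70.9 to 140). No FCER1A UMI was found in T, B, cDC1 or mature dendritic cells, which by the same floor of 3 counts allows up to 0.180 CPM in T, 2.77 in B, 2.76 in cDC1 and 1.89 in mature dendritic cells, and macrophages had 0.965 and 0.398 CPM. Inflammatory macrophages of reaction 2 had 7 UMIs (12.4 CPM, interval 4.98 to 25.5), beside 12.8 CPM in cDC2, and 0 in reaction 1. CXCL10 macrophages of reaction 1 had 5 UMIs (5.22 CPM, 1.70 to 12.2), beside 3.76 CPM in cDC2, and 0 in reaction 2. The log2 fold change against macrophages was 6.68 (edgeR with all genes that had a count), as the gene did not pass the filter on low counts. The p and SE of that fit do not measure the spread over mice and are left out. Against T cells, the neighbour in the order, mast cells were higher in 6 of 7 mice (adjusted p = 0.123, exact sign-flip test). After thinning, 8.45% and 17.2% of mast cells had an FCER1A UMI, against 0.295% and 0.0477% of macrophages. Cells under 1500 UMIs were left out of these shares, and the median mast cell of reaction 1 had only 1559.

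MS4A2, the beta chain of the IgE receptor, reached 584 and 1209 CPM in mast cells of the 2 reactions and 0.460 and 0.0724 in macrophages. Its log2 fold change was 10.93 (SE 0.40 by edgeR). MS4A2 could pass the filter on low counts only through the mast cells, so its p is left out. FCER1G was at 865 to 1607 CPM in mast cells (median 1396) and 818 to 1389 in macrophages. Its difference was 0.10 on the log2 scale (SE 0.23, adjusted p = 0.785), at -0.33 in reaction 1 and 0.60 (adjusted p = 0.0051) in reaction 2. Mast cells were above cDC2, which had 962 to 1749 CPM, in 4 of 8 mice (adjusted p = 0.935, exact sign-flip test).

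The IgG receptor genes and FCGRT were lower in mast cells. FCGR2A was at 18.1 to 268 CPM, FCGR3A at 0 to 247, FCGRT at 0 to 252, FCGR2B at 0 to 92.7 and FCGR1A at 0 to 41.6. Each was below its macrophage range except FCGR2B, whose highest mouse lay within it. Their log2 fold changes against macrophages were -3.31, -3.31, -2.84, -2.96 and -3.27, so 5 of 6 members were lower, against 30.6% of all genes in either direction. In reaction 1 these genes stood at 19.4% to 24.5% of the macrophage level with C1QA at 11.7%, and in reaction 2 FCGR3A stood at 0.921% and FCGR2A at 3.99% with C1QA at 0.298%. The mast cells of reaction 1 were shallow, at 1559 UMIs in the median cell.

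Of 25 signalling genes tested, 5 were higher and 11 lower in mast cells than in macrophages, where 30.6% of all genes were called. LAT, BTK and FYN were higher at 4.92, 2.58 and 2.25. GAB2 and LYN were lower at -1.97 and -1.68. FCAR was lower at -3.64 and FCGR1B at -2.86.

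The other dendritic classes were pDC, mature dendritic cells and cDC1. In pDC FCER1G was at 473 to 899 CPM (median 585, n = 9 mice), and NK cells, with a median of 626, did not differ from them beyond the spread (adjusted p = 0.602, exact sign-flip test). In the same cells FCGR2A stood at 6.56% and 1.31% of the macrophage level, against C1QA at 6.26% and 1.14%, whereas FCGR2B stood at 8.12% and 16.1%, from 3 and 20 UMIs. Mature dendritic cells had 28.1 to 141 CPM of FCGR2A (median 55.8, n = 8 mice), and cDC2 were above them for FCGR1A in 8 of 8 mice (adjusted p = 0.040). FCGR3A in mature dendritic cells was at 118 and 72.4 CPM in the 2 reactions, 19.1% and 11.9% of the macrophage level with C1QA at 9.03% and 3.25%. cDC1 reached 10 cells in 1 mouse only, and their pooled FCGRT was at 208 CPM (interval 166 to 256) and 177 CPM (146 to 211).

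**Figure D4:**
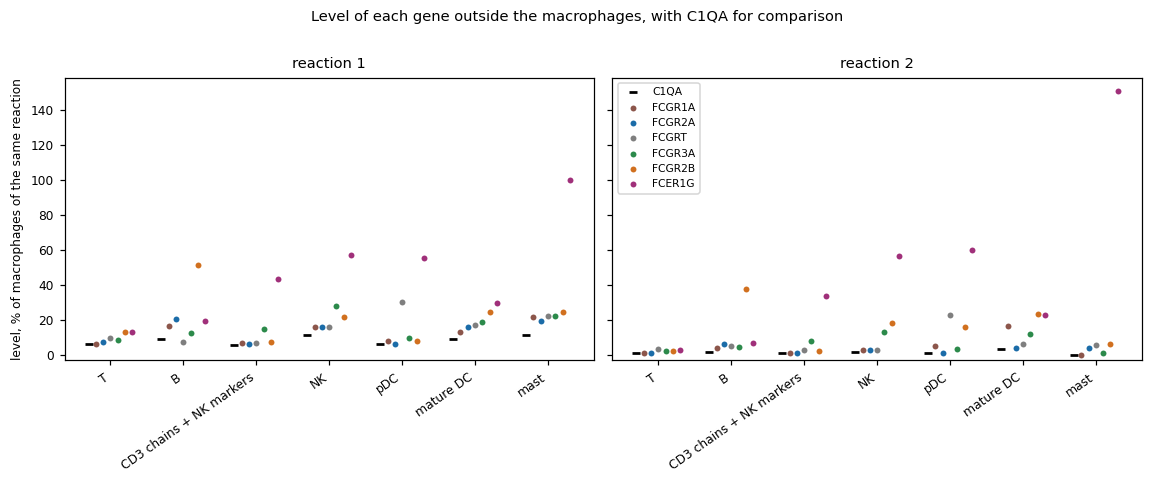
Level of each IgG receptor gene, FCER1G, FCGRT and the yardstick C1QA in a class as percent of its macrophage level in the same reaction (linear axis, 1 panel per reaction), with dots for receptors and dashes for C1QA. In T cells FCGR2A followed C1QA in both reactions, at 7.502% against 6.23% and 1.36% against 1.46%, while FCER1G, FCGRT, FCGR2B and FCGR3A stood above it. Monocytes held these last genes at higher shares than C1QA (19.2% and 10.53%). They also did so for FCGR2A (30.4% and 24.3%) and for FCGR1A (72.8% and 79.9%), which in T cells stood at 6.26% and 1.12%. C1QA is no like yardstick for free RNA of monocytes, and the part of that RNA was not tested. FCER1G in NK cells stood at 57.0% and 56.7%, and in mast cells of reaction 2 at 151%.

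In T cells FCGR1A went from 6.26% of the macrophage level in reaction 1 to 1.12% in reaction 2, and FCGR2A from 7.502% to 1.36%, as C1QA went from 6.23% to 1.46%. Other members in T cells stood above C1QA in both reactions. FCER1G was at 13.4% and 3.18%, FCGR2B at 13.5% and 2.42%, FCGRT at 9.74% and 3.45%, and FCGR3A at 8.58% and 2.25%, while FCER1A had no UMI. FCER1G in NK cells, by contrast, was at 57.0% and 56.7%, and in pDC at 55.4% and 60.2%. FCGR2B in B cells was at 51.7% and 38.0%. In CD3+ NK-marker cells FCER1G was at 43.5% and 33.6%.

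FCGR3B, the neutrophil copy of CD16, was at 3.69 CPM or less in each of the 11 classes. The study isolated mononuclear cells on a density gradient, no neutrophil class was gated, and the reason for the low level was not tested. The genes most like each member over the 11 classes, by the lower of the 2 reactions' Pearson correlations among 6047 genes, are given as a description, with classes sharing libraries and depth. FCER1G was closest to TYROBP (0.92 and 0.91), another signalling chain of the same kind. FCGRT was closest to GRN (0.94 and 0.94) and FCGR2A to PDK4 (0.98 and 0.97). FCGR1A was closest to CCDC170, FCGR3A to ATG7, FCGR2B to MEIKIN and FCER1A to TIMP3.

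**Figure D5:**
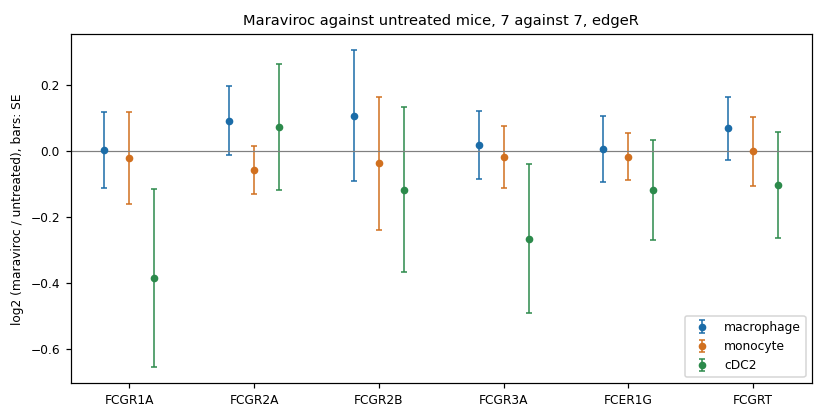
Log2 fold change of maraviroc against untreated mice for each Fc receptor gene in macrophages, monocytes and cDC2 (edgeR, reaction as covariate), with bars of 1 SE. Values ran from -0.38 for FCGR1A in cDC2 to 0.11 for FCGR2B in macrophages, and none was past the threshold.

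The comparison of maraviroc with untreated mice asked whether the drug went with other receptor levels. In macrophages FCGR2A was at 822 to 1108 CPM in untreated mice (median 1028) and 768 to 1276 in maraviroc mice (median 1105), and the groups overlapped. The log2 fold change was 0.09 (SE 0.10, n = 7 against 7 mice, adjusted p = 1 by edgeR), at 0.20 in reaction 1 and -0.02 in reaction 2. FCGR3A was at 442 to 769 and 522 to 696 CPM, FCGRT at 437 to 698 and 363 to 640, and FCGR2B at 51.4 to 123 and 68.7 to 109. The macrophage differences of the 6 members ran from 0.0032 to 0.11 with SEs of 0.10 to 0.20, and those of monocytes from -0.06 to -0.0005 with SEs of 0.07 to 0.20.

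In cDC2 the members ran from -0.38 (FCGR1A, SE 0.27) to 0.07 (FCGR2A, SE 0.19), and FCGR1A was at 31.3 to 117 CPM in untreated and 22.9 to 76.8 in maraviroc mice. Over 19 classes and states, 0 of 89 member tests passed with edgeR, against 0% of all genes in each of these classes, and DESeq2 called 0 members in the 5 classes where it was run. Treatment was assigned to cells by hashtag, and the effect of wrongly assigned cells on these differences was not tested. At an unadjusted p under 0.05 there were 2 member tests, 2.25% of them, against 4.06% of all gene tests. They were FCGR3A in mature dendritic cells (-1.79, SE 0.61, 3 against 5 mice, adjusted p = 0.843) and FCGRT in inflammatory macrophages (-0.79, SE 0.30, 4 against 4 mice, adjusted p = 0.513).

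The treatment difference was not found to depend on the reaction. Of 78 interaction tests of members in 14 classes and states, 0 passed with edgeR, 2 had an unadjusted p under 0.05, and the lowest adjusted p was 0.645. Exact permutation of the treatments within reactions, with 1225 regroupings and 18 tests, gave a lowest adjusted p of 0.957. On simulated data with 200 genes changed by 1 log2 unit, the same fit found 94.5% in macrophages and 79.5% in cDC2. The simulated counts held no reaction effect, and changes as small as those of the members in these classes were not simulated.

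Hashtags are antibodies, and their UMIs are given beside the receptor levels. The staining used human and mouse Fc block. In reaction 2 the median kept macrophage had 2139 hashtag UMIs, with 6.64% of them outside its top hashtag. Mast cells had 2103 and 4.72%, monocytes 1099 and 12.8%, and T cells 857 and 16.8%. In reaction 1 macrophages had 565 and 43.7%, monocytes 468 and 50.7%, T cells 494 and 31.6%, and NK cells 393.5 and 53.8%. The assignment of cells to mice, and so to treatments, rests on these tags. Of the cells within the gene and mitochondrial limits, 11917 of 27645 in reaction 1 and 7900 of 10161 in reaction 2 were assigned to 1 hashtag. In reaction 2 macrophages with an FCGR2A UMI had a median of 2159 hashtag UMIs and those without had 1343, and their median gene UMIs were 12607 and 7054. The other receptors looked at had smaller gaps in these cells. The medians with and without a UMI were 2177 and 2091 for FCGR1A, 2163 and 2103.5 for FCGR2B, and 2169.5 and 1639.5 for FCGR3A. In macrophages of reaction 1, FCGR2A instead had the smallest gap among these receptors, at 658 and 414. FCGR2B had 1201 and 510 there. For each of these receptors, macrophages with a UMI also had higher median gene UMIs than those without, in both reactions. The part of Fc receptors in the hashtag counts was not tested.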

How the data were processed

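The deposited files hold raw UMI counts per barcode for genes and hashtags, which the authors made with Cell Ranger 9.0.1 on GRCh38 without normalization. The submitters' notes also name Seurat 5.1.0. Treatments were read from hashtag names in the feature lists, since the sample labels do not give them. Hashtags were called by HTODemux (Seurat 5.3.0, quantile 0.99), which also dropped hashtag doublets. A cell joined the class with the highest share of markers above their mean share in its reaction, with at least 2 needed. T, B, mast and the dendritic classes also needed a defining marker, and NK cells had to lack CD3D, CD3E, CD3G and TRAC by this measure. Cells of the T gate stayed T with TRAC and fewer than 2 NK markers. With 2 or more NK markers they became CD3+ NK-marker cells, and the rest joined no class. Left out were 577 cells with 50% or more of another kind's markers, a guard against doublets, 279 carcinoma-like cells and 2458 cells of no class. This guard did not set T against NK markers. It also did not set the macrophage, monocyte, cDC1, cDC2 and mature dendritic classes against each other. Doublets of such pairs from the same mouse could remain. Counts were summed per mouse (at least 10 cells) and tested with edgeR 4.0.16 in R 4.3.3 (TMM, filterByExpr, quasi-likelihood, Benjamini-Hochberg over all genes, threshold 0.05), with the reaction as a covariate for treatment and the mouse as a block between classes. DESeq2 1.42.0 was an alternative. Orders used log2(CPM + 10). The treatment fits were tested on simulated data. Simulated data for the class fits took their spread from 1 class entered 2 times, which is too small to test those fits. Named genes were the members, their copies, and at most 6 genes past the threshold per comparison of 15 other Fc receptors and 26 signalling genes. One signalling gene is counted in the list but is not reported here. The closest of the 3 genes most like each member is printed. The members, lists and gates were chosen with earlier results of these data known, and gate limits, the CD3+ NK-marker class, cDC2 against monocytes and the FCGR2B share after seeing the data. Intervals are exact at 95%, the floor is 3 counts, and both cover counting error only. Human sequences and positions were not used here.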

Additional observations from a re-analysis of the deposited data

Results flagged for a closer look

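Of 44 groups of mice tested for 1 mouse far from the others (Dixon's test at 95%), 3 held one, and chance gives about 1 group in 20. FCGR2B in monocytes of maraviroc mice reached 134.7 CPM in the highest mouse, against 58.4 to 85.9 in the others. FCGRT in monocytes of untreated mice reached 321.0 CPM in the highest mouse, against 183 to 226 in the others. FCGR3A in cDC2 of maraviroc mice reached 249.7 CPM in the highest mouse, against 102 to 158 in the others.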

How the results depend on the processing

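All 38 called class differences of single members kept their direction under every setting run. In fits of both reactions, 6 lost the threshold in at least 1 setting, and 14 of 304 values did so, while 21 of 76 did in 1 reaction by itself. The number of members called between B and T cells was 1 without the mouse block and 1 with a gate on 3 markers. Between S100A12+ and S100A12- monocytes it was 2 without the mouse block and 2 in reaction 2. Between cDC2 and monocytes it was 5 with all genes that had a count and 1 in reaction 1. Against C1Q macrophages it was 1 for cycling macrophages in reaction 2 (FCER1G, lower, with the 3 calls of both reactions lost), 2 for TREM2 SPP1 macrophages in reaction 2, 0 for CXCL10 macrophages in reaction 2, and 2 for GLUT1 macrophages in reaction 1. Leaving out each mouse in turn gave 0 member calls for treatment in the 7 classes and states where it was run. Members called in neither fit changed sign in 34 values between classes and in 139 for treatment. The order tests gave 24 calls with a pseudocount of 1 CPM and 20 of 96 with gates on thinned counts, and with all barcodes the highest class changed for FCER1G, to cDC2. Unthinned shares of cells were higher: FCGR3A in 71.37% and 94.86% of macrophages, 39.42% and 42.24% of NK cells and 18.37% and 6.151% of T cells in reactions 1 and 2, and FCER1G in 78.61% and 89.66% of NK cells and 38.56% and 13.76% of T cells. cDC2 against cDC1 was not run, since cDC1 had 10 cells in 1 mouse. No paired analysis by replicate number was possible because each of the 4 labelled groups holds 1 library. Class fits were paired within mice instead. Depth limits the rare classes: mast, B and pDC sums hold few UMIs of single receptors.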
